A study of Mus musculus with 36 samples.

Results

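The genes described are 9 nuclear genes for small CHCH-type proteins of mitochondria: Cox17, Cox19, Cmc1, Cmc2, Chchd2, Chchd3, Chchd4, Chchd6 and Chchd7. They were taken by gene name from a table of 55335 genes, of which 17394 had enough counts to be tested, all 9 among them. The set was chosen by the BPK25 to DMSO ratio at day 2, which was among the lowest of all genes for Cox17 and Chchd7, and that ratio is described here without a test. Mouse embryonic stem cells were given DMSO, BPK25 or IAA, and RNA with a poly(A) tail was sequenced at days 0, 2, 4 and 6, with 3 libraries in each of the 12 groups and 36 libraries in all. DMSO is a solvent that serves as the control, BPK25 is a compound given by code name, and IAA is auxin, which is used to trigger breakdown of a protein that carries an auxin degron. The tagged protein, the doses, the event from which days are counted and whether all treatments used 1 clone are not in the labels. The growth protocol describes medium with a serum substitute and LIF, and plates that typically carried irradiated mouse fibroblasts as feeder cells. Nothing in the labels says that replicate libraries came from separate cultures, so p-values cover only library-to-library spread, which may be technical in origin.

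CHCH proteins fold as a helical hairpin held by disulfide bonds between paired cysteines, most often in the spacing called CX9C, a cysteine, 9 other residues and a cysteine. They are made in the cytosol and trapped in the space between the mitochondrial membranes by the import receptor Chchd4 (also called Mia40), which oxidises their cysteines and is itself reoxidised by Gfer, the mammalian counterpart of yeast Erv1. Cox17 carries copper to Sco1 and Cox11, which load it into cytochrome oxidase, the last enzyme of the respiratory chain; Cox19, Cmc1, Cmc2 and Chchd7, the counterpart of yeast Cox23, are assembly factors of the same enzyme, whereas Chchd3 and Chchd6 are subunits of MICOS, the complex that shapes the cristae, and Chchd2 is linked to respiration and stress responses.

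All 9 genes encode 2 CX9C pairs, as found by translating the main GENCODE M21 transcript of each gene. The stretches below run from the first to the last cysteine codon of the pairs and are written 5′ to 3′ on the coding strand of mouse build GRCm38, with those 4 codons in capitals. They are shown for the 2 genes that led to the set, for the import receptor, for Cox19, which was called lower in both treatments at day 4, and for Chchd6, which rose at day 0.
Cox17: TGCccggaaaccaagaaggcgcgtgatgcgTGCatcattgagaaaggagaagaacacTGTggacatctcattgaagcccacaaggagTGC
Chchd7: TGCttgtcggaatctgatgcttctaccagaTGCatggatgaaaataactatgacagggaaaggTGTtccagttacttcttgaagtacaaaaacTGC
Chchd4: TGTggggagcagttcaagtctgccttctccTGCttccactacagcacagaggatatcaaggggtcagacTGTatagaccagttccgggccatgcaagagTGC
Cox19: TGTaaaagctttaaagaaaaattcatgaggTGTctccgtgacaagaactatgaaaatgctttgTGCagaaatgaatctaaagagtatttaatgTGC
Chchd6: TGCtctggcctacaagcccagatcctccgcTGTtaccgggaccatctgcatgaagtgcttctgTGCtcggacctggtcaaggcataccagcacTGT

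The Cox17 stretch covers codons 26 to 55 of 63 and lies in 2 coding exons within chr16:38347176-38349298 (+ strand). The Chchd7 stretch covers codons 16 to 47 of 85, also in 2 coding exons, within chr4:3941303-3942807 (+ strand). Single coding exons hold the stretches of Chchd4 (codons 64 to 97 of 139, chr6:91465144-91465245), Cox19 (codons 30 to 61 of 92, chr5:139342574-139342669) and Chchd6 (codons 235 to 266 of 273, chr6:89384622-89384717), all on the - strand. Cox17 has the shortest reading frame of the 9 and Chchd6 the longest. Chchd3 and Chchd6, the MICOS pair, carry their cysteine pairs near the end of the protein, as does Chchd2 (codons 116 to 146 of 153), whereas in Chchd7 and Cmc2 (codons 14 to 47 of 79) they begin near the start.

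Libraries held 6621288 to 16497799 counts over genes, and the lowest member count in any library was 59, for Chchd7. All 12 pluripotency markers were detected in every group, with a summed level of 3116 to 3216 CPM (counts divided by TMM-adjusted library totals) in DMSO at day 0, 837 to 853 CPM at day 6, and 4456 to 4512 CPM in IAA at day 0. The 20 fibroblast marker genes summed to 1340 to 1394 CPM in DMSO at day 0, 1085 to 1111 at day 4 and 1004 to 1051 at day 6. While that sum fell, more single markers rose than fell. Of 19 tested, 9 rose and 1 fell in DMSO from day 0 to day 4, and 16 rose and 1 fell to day 6. Their median log2 fold changes were 0.70 and 1.77 against 0.02 and 0.03 over all genes, of which 50.3% and 62.7% were called. The sums in IAA were 1784 to 1863 at day 0, 1096 to 1124 at day 4 and 1286 to 1317 at day 6, and that in BPK25 at day 4 was 1484 to 1528, and most of that sum in DMSO at day 0 was Fn1, with 1163 CPM. At most 2 of the 20 were at 0 in any group. The part of feeder cells in the results was not tested. In bulk RNA, fewer cells of a type and less RNA per cell cannot be told apart.

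Per length of transcript, Cox17 was by far the most abundant member in DMSO at day 0. Its level was 624 ± 36.3 CPM per kb (SD, n = 3), computed with the 444-base main transcript. Chchd3 followed with 73.4 ± 5.54, Chchd2 with 68.0 ± 2.53 and Chchd4 with 21.7 ± 0.919 CPM per kb. Chchd7 stood at 16.04 ± 2.42 CPM per kb, ahead of Cmc1 with 13.2 ± 1.34 and Chchd6 with 11.7 ± 1.63. Cmc2, with 8.70 ± 0.851, and Cox19, with 6.77 ± 0.202 CPM per kb, were lowest. In this order Chchd3 and Chchd2, Chchd7 and Cmc1, and Cmc1 and Chchd6 differed by less than the sum of their SDs. The counts are per gene, and Cox17 also has a longer annotated transcript, so its level per length depends on which transcript was expressed.

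**Figure D1:**
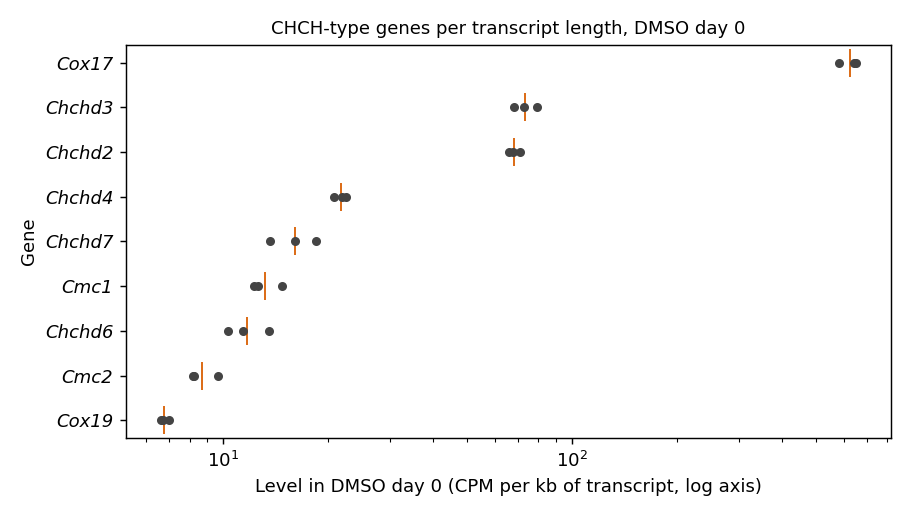
Level of each of the 9 genes in the 3 DMSO day 0 libraries, in CPM per kb of main transcript on a log axis; points are libraries and orange ticks are means. Cox17 lies far to the right of the other 8 genes, at 624 CPM per kb, and Cox19 is lowest at 6.77.

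At day 2 Cox17, the copper carrier, was at 319, 325 and 397 CPM in the 3 DMSO libraries, 204, 214 and 193 in BPK25, and 157, 163 and 149 in IAA. Both treated groups lay wholly below DMSO, and DMSO at day 2 was the highest of the 12 groups, above DMSO at day 0 with 259, 289 and 284 CPM. The log2 fold change at day 2 was -0.77 for BPK25 and -1.16 for IAA against the same DMSO libraries, and DMSO itself stood 0.33 above day 0 on that scale. These DMSO libraries are part of the ratio that chose Cox17, so the choice favours high values in them and low values of IAA against them. Leaving out each library in turn moved the BPK25 value between -0.83 and -0.66. The BPK25 ratio chose the gene, so this range is a description and no test of it. The 12 pluripotency markers summed to 2943 to 2981 CPM in DMSO, 2961 to 2997 in BPK25 and 1678 to 1699 in IAA at day 2, and their part in the values of Cox17 was not tested.

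Chchd7, the Cox23 counterpart, is expressed at a far lower level. At day 2 it was at 16.2, 14.9 and 19.6 CPM in DMSO, 9.39, 10.6 and 7.93 in BPK25, and 12.2, 12.5 and 12.7 in IAA. BPK25 at day 2 was the lowest and DMSO at day 2 the highest of the 12 groups for this gene, and the libraries of the 3 treatments at day 2 did not overlap. Libraries of BPK25 and DMSO were also apart at day 2 for 27.8% of all genes tested, and those of IAA and DMSO for 58.8%. The log2 fold change was -0.87 for BPK25, between -0.97 and -0.72 with 1 library left out, and -0.45 for IAA. The BPK25 ratio chose Chchd7 too, so its range is no test of it, and the choice favours high DMSO values at day 2. DMSO at day 2 stood 0.66 above DMSO at day 0, where the libraries held 12.4, 10.8 and 9.16 CPM and BPK25 held 10.5, 11.4 and 10.7.

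Among all 17394 genes tested, Chchd7 ranked 164th and Cox17 227th from the lowest BPK25 to DMSO ratio at day 2, the ratio that chose them. Among the 11589 genes that averaged at least 5 CPM over the 36 libraries they ranked 3rd and 9th. The genes beside Cox17 were Gm21987 (-0.78), which shares its reads, and Rbm3-ps (-0.77); Gtf2h2 (-0.76), for a subunit of the transcription factor TFIIH, came after these. Zfp692 (-0.86), a zinc finger gene, came next after Chchd7. The other 7 members lay between -0.20 for Cmc1 and 0.44 for Chchd6, and the median of the 9 was 0.01 against 0.00 over all genes tested. The shortest of 5 classes of transcript length, which holds both Cox17 and Chchd7, had a median log2 fold change of 0.06. The part of transcript length in the values of these 2 genes was not tested. Over all genes tested, 13.5% had an adjusted p under 0.05 in this comparison, 55.4% in IAA against DMSO at day 2, and 5.44% between DMSO at days 2 and 0.

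**Figure D2:**
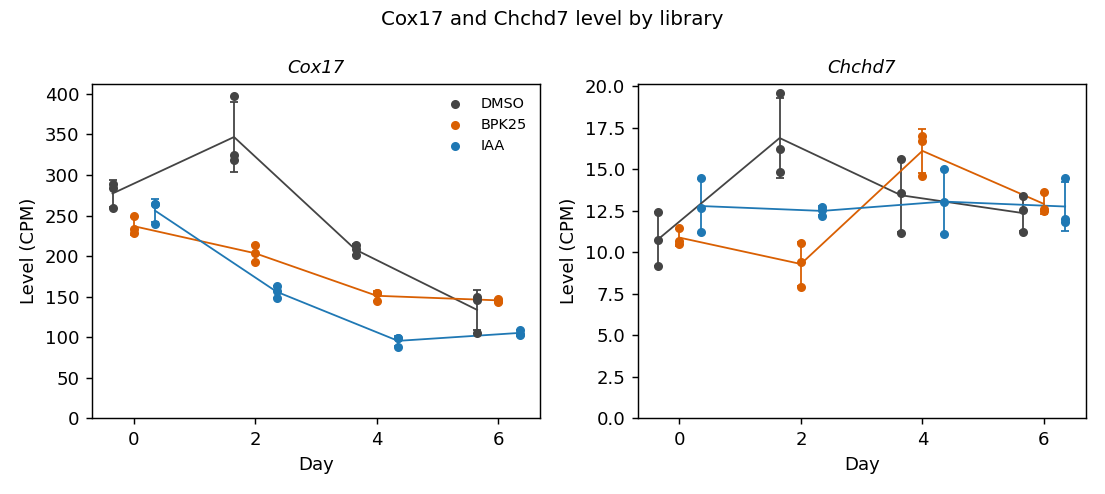
Level of Cox17 and Chchd7 in CPM by day and treatment; points are libraries, lines join group means and bars are the SD of 3 libraries, with treatments offset sideways for legibility. DMSO peaks at day 2 in both panels, in libraries that were part of the ratio that chose both genes. Cox17 is lower at day 4 than at day 2 in every treatment and in IAA is slightly higher again at day 6. Chchd7 in BPK25 is lowest at day 2 and higher at day 4.

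Cox17 also differed from DMSO at day 4 in both treatments. At day 4 its level was 208, 201 and 214 CPM in DMSO, 144, 154 and 155 in BPK25, and 98.7, 88.2 and 99.4 in IAA. The 3 groups did not overlap at day 4, with IAA lowest. Cox17 fell by 0.46 ± 0.07 on the log2 scale in BPK25 (edgeR's quasi-likelihood test, Benjamini-Hochberg adjusted p = 7.95e-07) and fell by 1.12 ± 0.08 in IAA (adjusted p = 1.67e-17), where ± is an approximate standard error, the size of the change over the root of its F statistic. BPK25 was higher than IAA by 0.66 ± 0.08 (adjusted p = 5.69e-10, same test). The groups compared here hold no day 2 library, but the fit and its estimate of spread used all 36 libraries.

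At day 6 the levels of Cox17 were 146, 105 and 150 CPM in DMSO, 145, 144 and 147 in BPK25 and 104, 103 and 109 in IAA. DMSO replicate 2 lay among the IAA libraries and the other DMSO libraries lay near those of BPK25. Cox17 fell by 0.35 ± 0.08 in IAA (edgeR's quasi-likelihood test, adjusted p = 0.00013), and BPK25 did not pass (0.11 ± 0.08, adjusted p = 0.424). At day 0 BPK25 held 233, 249 and 228 CPM, all below the DMSO libraries, and IAA held 264, 239 and 264, overlapping them. Cox17 fell by 0.23 ± 0.07 in BPK25 at day 0 (adjusted p = 0.0402 by the same test), a call that did not hold in every fit. The adjusted p was 0.0539 with DESeq2, 0.127 and 0.146 without BPK25 replicate 1 or 3, and 0.172 and 0.145 without DMSO replicate 2 or 3. The effect of BPK25 on Cox17 differed between days 0, 4 and 6 (adjusted p = 5.87e-05), as did that of IAA (adjusted p = 7.18e-11), by joint tests in the same fit.

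In DMSO alone Cox17 fell by 0.42 ± 0.07 from day 0 to day 4 (adjusted p = 4.33e-06) and fell by 1.04 ± 0.07 to day 6 (adjusted p = 2.71e-17), both by edgeR's quasi-likelihood test with Benjamini-Hochberg adjustment. All 12 pluripotency markers fell over the same days by the same test, with a median log2 fold change of -1.21 at day 4 and -2.00 at day 6 against 0.02 and 0.03 over all genes, and their part in the change of Cox17 was not tested. In the order of group means of Cox17, 4 of the 11 steps from one group to the next separated all libraries: those from DMSO at day 2 to DMSO at day 0, from BPK25 at day 0 to DMSO at day 4, from BPK25 at day 2 to IAA at day 2, and from IAA at day 6 to IAA at day 4. For Chchd7 the libraries of neighbouring groups overlapped at all 11 steps.

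The Cox17 values carry a limit of the counting. The gene model Gm21987 lies on the same strand and shares 257 exonic bases with Cox17 at 100% identity, and its counts were 96.7 to 99.2% of those of Cox17 in each library (Pearson r = 1.00 over the 36 libraries, a description). Reads of these genes cannot be told apart here, so the 2 entries are treated as 1 measurement. Chchd7 had no such overlap.

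Chchd7 passed in fewer comparisons than Cox17 outside day 2. At day 4 it was at 15.6, 13.5 and 11.2 CPM in DMSO, 14.6, 16.7 and 17.0 in BPK25 and 15.0, 11.1 and 13.0 in IAA. The libraries of the 3 treatments overlapped at day 4, and none of the 6 tested comparisons of a treatment with DMSO passed for Chchd7 by edgeR's quasi-likelihood test, in which the smallest adjusted p was 0.0996, for BPK25 at day 4 (0.23 ± 0.12). That value passed in 2 alternative fits, at 0.36 (adjusted p = 0.00754) with a trend on transcript length removed and at 0.34 (adjusted p = 0.0329) without DMSO day 4 replicate 1. Chchd7 was higher in BPK25 than in IAA at day 4 by 0.30 ± 0.11 (adjusted p = 0.0248), a call lost without the filter on low counts (adjusted p = 0.0548), with the length trend removed (0.0904) and without BPK25 replicate 2 (0.0704) or 3 (0.123) or IAA replicate 2 (0.187) or 3 (0.0598). Chchd7 rose in DMSO from day 0 to day 4 by 0.34 ± 0.14 (adjusted p = 0.0374), and this was lost with DESeq2 (adjusted p = 0.0709) and without DMSO day 0 replicate 2 (0.112) or 3 (0.236) or DMSO day 4 replicate 1 (0.273) or 2 (0.0619).

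Chchd7 starts 465 bases from Plag1, a zinc finger transcription factor gene read in the opposite direction. Plag1 rose in IAA by 0.59 ± 0.13 at day 4 and by 1.02 ± 0.13 at day 6 (edgeR's quasi-likelihood test, adjusted p = 0.000203 and 2.17e-09), comparisons in which Chchd7 did not pass, with values of -0.07 and 0.06. Plag1 also rose by the same test in BPK25 at day 4 by 0.41 ± 0.14 (adjusted p = 0.0114). In IAA at day 0 it rose by 0.46 ± 0.16 (adjusted p = 0.0163, same test). Chchd7 did not pass there either, with values of 0.23 and 0.25 in the same direction. A test of the difference between the genes was not made. At day 2 the log2 fold change of Plag1 was -0.32 in BPK25 and 0.43 in IAA, given as a description.

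Against DMSO of the same day, all members called at days 4 and 6 were lower, whereas most called at day 0 were higher. In BPK25 at day 0, 3 of the 9 were called, Chchd3 and Chchd6 higher and Cox17 lower, where 7.9% of all genes tested were called in either direction. At day 4, 3 were called in BPK25, Cox17, Cox19 and Chchd4, all lower, against 53% of all genes in either direction and 26.8% lower. Cmc1 was also lower in all BPK25 libraries at day 4 but did not pass (adjusted p = 0.0748, same fit). At day 6 none was called in BPK25 by edgeR's quasi-likelihood test, with 0 also at an unadjusted p under 0.05 and 0 with DESeq2, against 7.09% of all genes. In IAA 2 members were called at day 0, both higher, against 44.5% of all genes in either direction and 21.3% higher. At day 4, 7 were called in IAA, all lower, against 51.9% and 25.9% lower, and at day 6, 4 were called, all lower, against 60.6% and 30% lower. The median log2 fold change of the 9 was -0.23 in BPK25 and -0.24 in IAA at day 4, against -0.01 and 0.00 over all genes. In DMSO, 5 members were called between days 0 and 4, 3 higher and 2 lower at day 4 (50.3% of all genes). Between days 0 and 6, 4 were called, 1 higher and 3 lower at day 6 (62.7%). Between BPK25 and IAA at day 4, 4 were called, 3 higher and 1 lower in BPK25 (54.3%). The effect of BPK25 differed between days 0, 4 and 6 for 4 members (45.6% of all genes) and that of IAA for 7 (55.8%). Libraries of a treatment and DMSO were apart for 24.3% of all genes in BPK25 and 52% in IAA at day 0, for 57.2% and 58.1% at day 4, and for 63.2% in IAA at day 6. The BPK25 count at day 0 was 2 without any 1 of 5 libraries and 1 without DMSO replicate 2, so leaving out any of the 6 libraries lowered it. The count at day 4 was 5 without BPK25 replicate 2 or DMSO replicate 2. The IAA count at day 0 was 1 without DMSO replicate 2, the count between BPK25 and IAA was 2 without IAA replicate 3, and that between DMSO at days 4 and 0 was 3 without day 0 replicate 2. The count for the IAA effect across days was 4 without DMSO day 0 replicate 1 or 2.

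**Figure D3:**
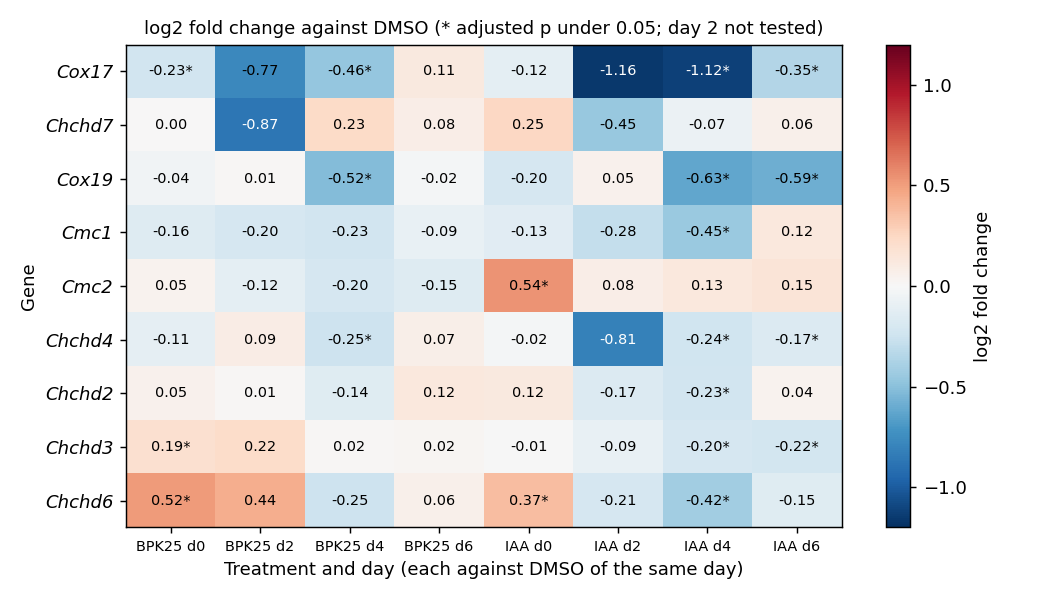
log2 fold change of each member (rows) against DMSO of the same day (columns: BPK25 and IAA at days 0, 2, 4 and 6), in colour and as a number; asterisks mark an adjusted p under 0.05, and day 2 was not tested. Cox17 has values of -1.16 and -1.12 in IAA at days 2 and 4, and the MICOS gene Chchd6 is higher in BPK25 at days 0 and 2.

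Cox19, an assembly factor that works with Cox11 in copper delivery, had a pattern of its own. At day 4 it was at 24.8, 23.4 and 22.9 CPM in DMSO, 18.2, 15.1 and 16 in BPK25 and 16.5, 14.4 and 15.2 in IAA. Both treated groups lay below every DMSO library, and DMSO at day 4 was the highest of the 12 groups. Cox19 rose in DMSO from day 0 to day 4 by 0.51 ± 0.10 (edgeR's quasi-likelihood test, adjusted p = 2.38e-05) and was lower than DMSO at day 4 by -0.52 ± 0.09 in BPK25 (adjusted p = 5.73e-06) and by -0.63 ± 0.09 in IAA (adjusted p = 9.92e-08). At day 6 it was at 16.3, 20.4 and 20.6 CPM in DMSO and 11.98, 13.6 and 12.02 in IAA, which did not overlap, a difference of -0.59 ± 0.10 (adjusted p = 1.69e-06). At day 2 its libraries overlapped between treatments, with log2 fold changes of 0.01 in BPK25 and 0.05 in IAA against DMSO.

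Cmc1 and Cmc2 are both assembly factors of cytochrome oxidase. Cmc1 was at 16.3, 15.2 and 17.8 CPM in DMSO at day 4 and at 12.7, 11.4 and 11.7 in IAA, without overlap, and fell by 0.45 ± 0.11 (edgeR's quasi-likelihood test, adjusted p = 0.000506). Cmc2 was at 12, 11.9 and 14.1 CPM in DMSO at day 0 and at 16.7, 17.6 and 21.2 in IAA, again without overlap, and rose by 0.54 ± 0.12 (adjusted p = 0.000164). In the same groups the summed fibroblast and pluripotency markers were also higher in IAA, as given above. Of 19 single fibroblast markers tested, however, 4 rose and 3 fell, against 44.5% of all genes called. The median log2 fold change of these 19 was -0.46, against -0.03 over all genes. The part of either marker list in the Cmc2 value was not tested. Cmc1 did not pass in IAA at day 0 (-0.13 ± 0.12), nor Cmc2 at day 4 (0.13 ± 0.10), and the genes were not tested against each other. DMSO at day 0 had the lowest mean of the 12 groups for Cmc2, and IAA at days 0 and 6 had the highest, both at 18.5 CPM. In DMSO Cmc2 rose by 0.37 ± 0.12 to day 4 (adjusted p = 0.00786), though not without DMSO day 0 replicate 1 (adjusted p = 0.0541) or 2 (0.0605), and by 0.40 ± 0.11 to day 6 (adjusted p = 0.00158). At day 4 Cmc2 was lower in BPK25 than in IAA by -0.33 ± 0.10 (adjusted p = 0.00455), a call lost without IAA replicate 3 (adjusted p = 0.0711).

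Cmc2 starts 275 bases from Cenpn, a centromere protein gene read in the opposite direction. Cenpn also rose in IAA at day 0, by 0.25 ± 0.06 (edgeR's quasi-likelihood test, adjusted p = 0.000767), and it rose in BPK25 at day 4 by 0.41 ± 0.06 (adjusted p = 6.97e-08), where Cmc2 did not pass, with a value of -0.20 ± 0.11. By the same test it rose in IAA at day 4 by 0.27 ± 0.06 (adjusted p = 0.000144), where Cmc2 did not pass. Cenpn and Cmc2 were called in opposite directions in 2 comparisons. Cenpn was lower in DMSO at day 6 than at day 0 (-0.16 ± 0.06, adjusted p = 0.0209), where Cmc2 rose. It was higher in BPK25 than in IAA at day 4 (0.14 ± 0.06, adjusted p = 0.026), where Cmc2 was lower.

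The wider set of copper handling and cytochrome oxidase assembly genes moved in both directions. Of 24 tested, 5 rose and 9 fell in BPK25 at day 4 and 4 rose and 5 fell in IAA, with a median log2 fold change of -0.02 and -0.03 against -0.01 and 0.00 over all genes. Over all genes tested 53% were called in BPK25 and 51.9% in IAA at day 4, with 26.8% and 25.9% of all genes lower, so the share called in this set was near that of all genes in BPK25 and below it in IAA. The count that rose in BPK25 was as low as 2, with losses without the filter, with DESeq2 and without BPK25 replicate 1 or DMSO replicate 1 or 2, and the count that fell in IAA was 3 without the filter on low counts. Atp7b, a copper exporter, rose by 0.70 ± 0.11 in BPK25 and by 1.64 ± 0.09 in IAA at day 4, and Atp7a, its relative, rose by 0.47 ± 0.06 in IAA. Atox1, which hands copper to such exporters, fell by 0.56 ± 0.08 in BPK25, and Ccs, the copper chaperone of superoxide dismutase, fell by 0.85 ± 0.11 in BPK25 and fell by 0.56 ± 0.10 in IAA. Sod1, that enzyme, rose in BPK25 by 0.34 ± 0.05. Coa7, an assembly factor, fell by 0.49 ± 0.08 in IAA. The largest adjusted p among these values was 6.54e-06 (edgeR's quasi-likelihood test).

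Of the 15 cytochrome oxidase subunit genes, 3 rose and 7 fell in BPK25 at day 4, and 4 rose and 9 fell in IAA. The medians were -0.18 and -0.14 on the log2 scale, against -0.01 and 0.00 over all genes, of which 53% and 51.9% were called and 26.8% and 25.9% were called lower. With the trend on transcript length removed, the count that rose in BPK25 was 6 and the count that fell in IAA was 5. The catalytic subunit gene mt-Co1, encoded in mitochondrial DNA, rose by 0.56 ± 0.04 in BPK25 and by 0.89 ± 0.04 in IAA, and mt-Co2 rose by 0.75 ± 0.09 in IAA. The nuclear subunit genes Cox7c (-0.60 ± 0.06 and -0.79 ± 0.06) and Cox8a (-0.70 ± 0.08 and -0.74 ± 0.08) fell in both, and Cox7b fell by 0.37 ± 0.05 in BPK25. The largest adjusted p among these values was 5.57e-09 (edgeR's quasi-likelihood test). Mitochondrially encoded genes as a whole took 1.40% ± 0.0492 of counts in DMSO at day 4, 1.96% ± 0.102 in BPK25 and 2.49% ± 0.0245 in IAA (SD, n = 3), and the part of that share in the result was not tested.

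Chchd4, the import receptor, fell over the days in DMSO and its IAA libraries were lower at day 2. Its level in DMSO was 76.1, 78.1 and 71.9 CPM at day 0, 71.8, 68.4 and 63.6 at day 2, 46.9, 45.0 and 45.1 at day 4 and 42.5, 41.7 and 40.1 at day 6. IAA overlapped DMSO at day 0, with 71.2, 75.4 and 77.0 CPM, and stood at 42.8, 38.6 and 34.7 at day 2, when BPK25 was at 72.5, 72.4 and 70.6. At day 2 the libraries of IAA lay wholly below those of the other 2 treatments, near the level that DMSO reached at days 4 and 6. The log2 fold change of IAA at day 2 was -0.81, between -0.88 and -0.77 with 1 library left out, given without a test because it shares the day 2 DMSO libraries. The summed pluripotency markers given above for day 2 moved with it, and their part was not tested.

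In DMSO Chchd4 fell by 0.72 ± 0.06 to day 4 and fell by 0.86 ± 0.06 to day 6 (edgeR's quasi-likelihood test, adjusted p = 5.22e-14 and 1.91e-17). At day 4 it was at 37.5, 34.3 and 43.0 CPM in BPK25 and 39.7, 37.3 and 39.2 in IAA, all below DMSO. It fell by 0.25 ± 0.07 in BPK25 (adjusted p = 0.00144) and fell by 0.24 ± 0.06 in IAA (adjusted p = 0.00161). The lower level in IAA at day 6, -0.17 ± 0.07 (adjusted p = 0.0241), did not hold with DESeq2 (adjusted p = 0.0769) or without DMSO replicate 1 (0.106) or 2 (0.052) or IAA replicate 3 (0.0554). Tmem43, an inner nuclear membrane protein gene that starts 157 bases away in the opposite direction, rose in DMSO to day 6 by 0.28 ± 0.08 (adjusted p = 0.00201), where Chchd4 fell. In IAA at day 6 Tmem43 was lower, as Chchd4 was, with a value of -0.17 ± 0.07 (adjusted p = 0.0411, same test). At day 2 the log2 fold change of Tmem43 was -0.51 in IAA and 0.00 in BPK25, given as a description.

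Among 11 other genes of the import relay of the intermembrane space, 1 rose and 6 fell at day 4 in BPK25 and likewise in IAA, with medians of -0.22 and -0.29 on the log2 scale against -0.01 and 0.00 over all genes. Of all genes, 26.8% were called lower in BPK25 and 25.9% in IAA. In IAA 2 rose with the length trend removed or without IAA replicate 3. Gfer, the partner that reoxidises Chchd4, fell by 0.42 ± 0.08 in IAA at day 4 (adjusted p = 9.13e-06) and fell by 0.77 ± 0.07 in DMSO to day 6 (adjusted p = 2.00e-13), by edgeR's quasi-likelihood test. Cycs, cytochrome c, fell by 0.55 ± 0.05 in IAA at day 4 (adjusted p = 1.33e-12). Aifm1, a membrane flavoprotein that binds Chchd4, fell by 0.47 ± 0.05 in BPK25 at day 4 (adjusted p = 1.17e-10). The small carriers Timm8b and Timm13, whose cysteines Chchd4 also oxidises, fell in both treatments at day 4, with values of -0.63 ± 0.06 in BPK25 and -0.57 ± 0.06 in IAA for Timm8b and of -0.49 ± 0.07 and -0.50 ± 0.07 for Timm13 (largest adjusted p = 2.18e-07). Timm9, another carrier of this kind, rose in BPK25 at day 4 by 0.71 ± 0.15 (adjusted p = 0.000105).

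Chchd2, the gene linked to respiration and stress responses, fell with time in DMSO. It was at 60.2, 64.7 and 61.8 CPM in DMSO at day 0 and at 40.1, 43.8 and 48.0 at day 6, and fell by 0.51 ± 0.07 (edgeR's quasi-likelihood test, adjusted p = 1.15e-08). In IAA at day 4 it was at 46.0, 52.4 and 44.7 CPM against 55.3, 58.1 and 53.0 in DMSO, just without overlap, and was lower by -0.23 ± 0.07 (adjusted p = 0.00453). That value was -0.06 (adjusted p = 0.525) with the length trend removed, and the adjusted p was 0.0503 without IAA replicate 3. Genes in the next to shortest class of transcript length, which holds Chchd2, had a median log2 fold change of -0.14 in that comparison. Some reads of Chchd2 may fall on near copies: Zbed5 shares 454 bases at 98.5% identity and held 8.06% as many counts, and Gm12350 held 1.59%.

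Chchd3 and Chchd6, the MICOS subunits, were the only members called higher in BPK25 at day 0. Chchd6 was at 18.9, 20.7 and 16.6 CPM in BPK25 at day 0 against 15.1, 11.6 and 12.7 in DMSO, without overlap, and rose by 0.52 ± 0.11 (edgeR's quasi-likelihood test, adjusted p = 0.00198). At day 2 it was at 19.0, 17.0 and 19.5 CPM in BPK25 against 14.3, 14.9 and 12.1, again without overlap, and at day 4 BPK25 was at 11.4, 15.3 and 13.6 against 16.7, 14.8 and 15.4, with overlap. The effect of BPK25 on Chchd6 differed between days 0, 4 and 6 (adjusted p = 0.000335). In IAA Chchd6 rose at day 0 by 0.37 ± 0.12 (adjusted p = 0.00939), though its libraries, at 17.7, 17.7 and 15.1 CPM, overlapped DMSO and the call was lost without DMSO replicate 2 (adjusted p = 0.0976). It fell by 0.42 ± 0.11 in IAA at day 4 (adjusted p = 0.00125), with 12.9, 11.4 and 10.98 CPM against the DMSO values above.

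Chchd3 moved by smaller amounts. It was at 128, 132 and 129 CPM in BPK25 at day 0 against 113, 106 and 123 in DMSO, without overlap, a rise of 0.19 ± 0.05 (edgeR's quasi-likelihood test, adjusted p = 0.0161) that was lost without BPK25 replicate 2 (adjusted p = 0.0573) or DMSO replicate 1 (0.0597) or 2 (0.17). In IAA it was at 102, 101 and 102 CPM at day 4 against 112, 118 and 121 in DMSO, and at 101, 88.6 and 88.3 at day 6 against 104, 117 and 105. The IAA libraries lay below every DMSO library on both days. Chchd3 fell by 0.20 ± 0.05 at day 4 (adjusted p = 0.00093) and fell by 0.22 ± 0.05 at day 6 (adjusted p = 0.000292). At day 4 Chchd3 was higher in BPK25 than in IAA by 0.22 ± 0.05 (adjusted p = 0.000308). Over the 36 libraries the log2 levels of Chchd3 and Chchd6 had a Pearson r of 0.70, a description over libraries that share groups.

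Among 10 other MICOS and cristae genes, 6 fell at day 4 in BPK25 and 6 in IAA, with medians of -0.18 and -0.24 on the log2 scale against -0.01 and 0.00 over all genes. Of all genes, 26.8% and 25.9% were called lower. At day 0 in BPK25, where Chchd3 and Chchd6 were called higher, the smallest adjusted p among these 10 was 0.107, for Immt (0.10). At day 4 Micos10, a core MICOS subunit, fell by 0.53 ± 0.06 in BPK25 and Micos13, another subunit, fell by 0.37 ± 0.07. Samm50, the outer membrane partner of MICOS, fell by 0.50 ± 0.06 in BPK25 and fell by 0.36 ± 0.06 in IAA, and Dnajc11, a partner of the same complex, fell by 0.34 ± 0.05 in BPK25 and fell by 0.31 ± 0.05 in IAA. Immt, the core subunit Mic60, fell by 0.29 ± 0.04 at day 4 and fell by 0.43 ± 0.04 at day 6 in IAA, and Opa1, the fusion protein of the inner membrane, fell by 0.24 ± 0.04 in IAA at day 4. The largest adjusted p among these falls was 1.41e-05 (edgeR's quasi-likelihood test).

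**Figure D4:**
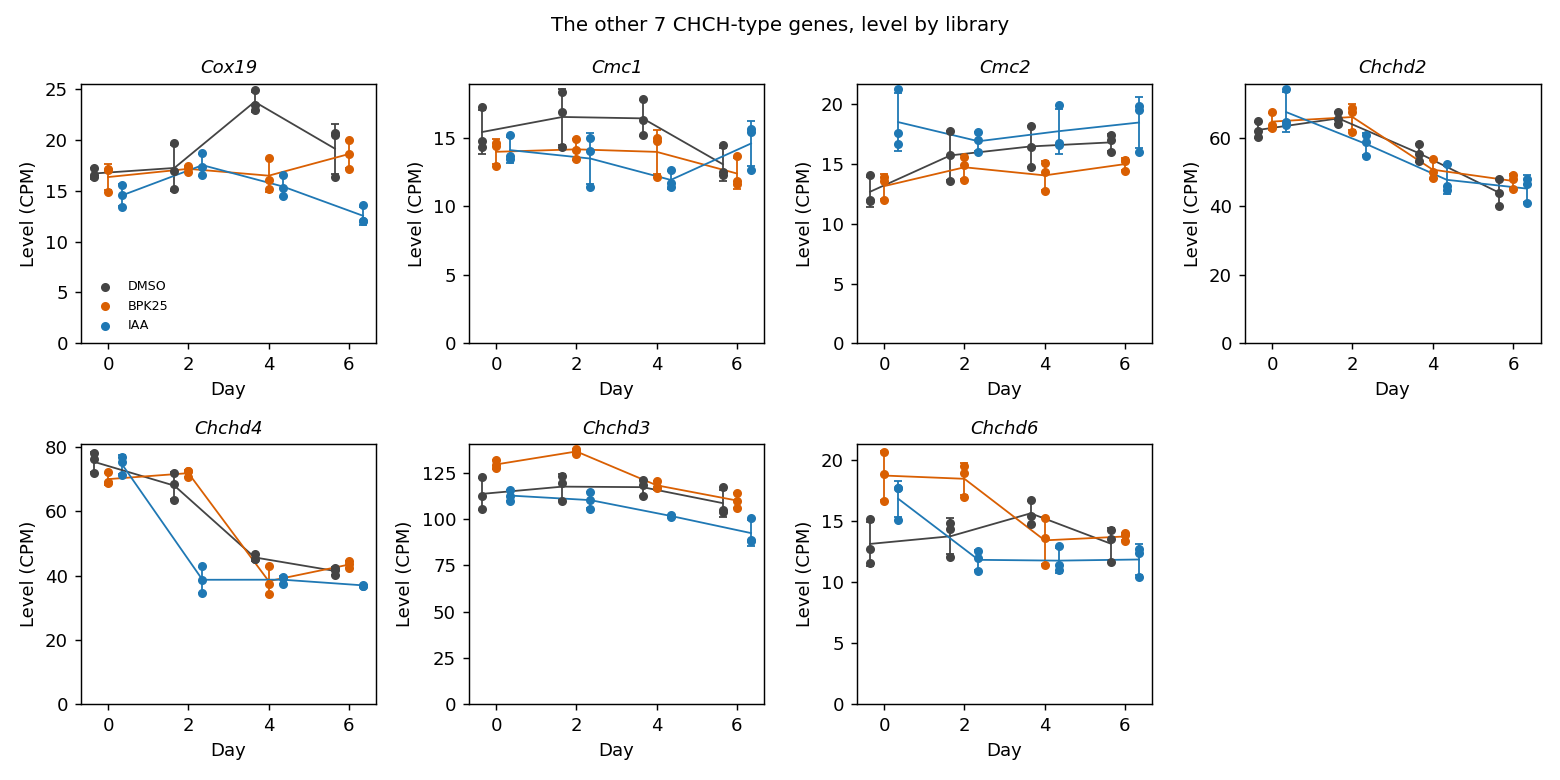
Level in CPM by day and treatment of the other 7 members; points are libraries, lines join group means and bars are the SD of 3 libraries. Chchd4 in IAA at day 2 is already below every DMSO and BPK25 library of that day, Cox19 peaks in DMSO at day 4, and Chchd6 is higher in BPK25 at days 0 and 2.

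Genes outside the set that were listed by name as CHCH-type were more often called lower than higher at day 4. Of 14 tested, 1 rose and 7 fell in BPK25 and in IAA, with medians of -0.25 and -0.22 on the log2 scale against -0.01 and 0.00 over all genes. Over all genes 53% and 51.9% were called, 26.8% and 25.9% lower. The share called in either direction was thus near the background, while in the main fit the share called lower was above it. With the length trend removed, 2 fell in IAA. In BPK25 2 rose in that fit, with only the compared libraries fitted, and without BPK25 replicate 2. Chchd10, the close relative of Chchd2, fell by 2.25 ± 0.08 in DMSO to day 6 (edgeR's quasi-likelihood test, adjusted p = 1.31e-29), and was lower still in IAA by -1.78 ± 0.09 at day 4 (adjusted p = 1.44e-22) and by -1.35 ± 0.11 at day 6 (adjusted p = 2.71e-15). In BPK25 at day 0 Chchd10 rose by 0.39 ± 0.07 (adjusted p = 8.18e-05). Coa5, an assembly factor of cytochrome oxidase, fell by 0.61 ± 0.06 in BPK25 at day 4 (adjusted p = 3.41e-12). Chchd1, a mitochondrial ribosome protein, rose by 0.34 ± 0.06 in BPK25 (adjusted p = 3.27e-06). Cox6b1, a cytochrome oxidase subunit, fell by 0.36 ± 0.06 in BPK25 and fell by 0.39 ± 0.06 in IAA at day 4 (adjusted p = 3.69e-06 and 7.22e-07). Uqcrh, a subunit of respiratory complex III, fell by 0.41 ± 0.06 in BPK25 (adjusted p = 1.51e-07). In IAA Uqcrh (-0.34 ± 0.06, adjusted p = 3.89e-06) and Ndufs5, a subunit of complex I (-0.36 ± 0.08, adjusted p = 0.000231), were called lower, but not with the length trend removed.

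The members did not vary as a unit. Over the 36 libraries the log2 level of Cox17 had a Pearson r of 0.83 with Chchd4, 0.81 with Chchd2 and -0.01 with Chchd7, values that describe libraries sharing groups and days. Among 10525 tested genes averaging 5 CPM or more, with predicted and clone names left out, those most like Cox17 by this measure were Got1, a cytosolic aminotransferase gene, with 0.943, Cisd1, for an iron-sulfur protein of the outer mitochondrial membrane, with 0.940, Ccdc43 with 0.936, the ribosomal protein gene Rpl11 with 0.935 and the mitotic kinesin gene Kif11 with 0.930. For Chchd7 the values were lower, from 0.588 for the long noncoding RNA Tug1 to 0.574 for Rmnd5a, with Dcun1d3, Dmxl1 and Dipk2a between them.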

How the data were processed

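The data are RNA-seq counts per gene in 36 libraries, 3 in each of 12 groups of treatment and day, with groups taken from the labels. The authors deposited the counts as whole numbers, not normalized. The submitters' processing notes name FastQC 0.11.7, HISAT2 2.1.0, featureCounts 2.0.1, DESeq2 and build mm10. The sources used here do not give the strand setting or the annotation release of the counting.

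One edgeR 4.0.16 quasi-likelihood model (R 4.3.3, limma 3.58.1) was fitted to all 12 groups, with TMM scaling and genes filtered at a count of at least 10 (total of at least 15), leaving 17394 genes. p-values were Benjamini-Hochberg adjusted over these genes, with 0.05 as the threshold. Members were not tested in comparisons with day 2 libraries; the share of all genes called there is given as background only. Members and lists were chosen with earlier results of these data known. At day 4, up to 4 genes per list were named for each treatment against DMSO, those with the smallest p among the called with at least 5 CPM in 1 group. The same rule gave the few list genes named elsewhere, where not all that met it are printed. Also named were the divergent neighbours within 1 kb and the 5 genes most correlated with Cox17 and with Chchd7. Gene positions, transcripts and sequences came from GENCODE M21 (GRCm38), which matched 97.8% of tested genes, and near copies were sought with BLAST 2.17.0. Alternatives were DESeq2 1.42.0, RLE scaling, no filter, a filter of 1 CPM in 3 libraries, only the compared libraries, a replicate block, a transcript-length trend (spline with 5 degrees of freedom) removed, and leaving out each library. In simulated counts for BPK25 against DMSO at day 0 (17248 genes, 50 changed at each size), 34% of 1.25-fold, 78% of 1.5-fold, 88% of 2-fold and 98% of 4-fold changes were recovered, and 3.25% of calls were false.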

Additional observations from a re-analysis of the deposited data

Results flagged for a closer look

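The effect of a treatment differed between days 0, 4 and 6 for several members, by joint tests in edgeR's quasi-likelihood fit with Benjamini-Hochberg adjustment over all genes. For BPK25 the adjusted p was 5.87e-05 for Cox17, 0.00191 for Cox19, 0.0136 for Chchd4 and 0.000335 for Chchd6. The Cox17 difference from DMSO was -0.23 at day 0, -0.46 at day 4 and 0.11 at day 6 on the log2 scale, and that of Chchd6 was 0.52, -0.25 and 0.06.

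For IAA the adjusted p was 7.18e-11 for Cox17, 0.024 for Cox19, 0.00562 for Cmc1, 0.0402 for Cmc2, 0.00549 for Chchd2, 0.0235 for Chchd3 and 0.00022 for Chchd6. The Cox17 difference was -0.12 at day 0, -1.12 at day 4 and -0.35 at day 6, and that of Chchd6 was 0.37, -0.42 and -0.15. These tests share the DMSO libraries between treatments. In IAA the calls for Cox19, Cmc2 and Chchd3 were lost when single libraries were left out. For Cox19 these were DMSO day 0 replicates 1 and 2 and IAA day 0 replicates 2 and 3, with adjusted p from 0.0562 to 0.0843. For Chchd3 they were DMSO day 0 replicates 1 and 2 and IAA day 0 replicates 1 and 2, with 0.0543 to 0.18. For Cmc2 they were DMSO day 0 replicates 1 and 2, DMSO day 4 replicate 3, IAA day 0 replicate 3, IAA day 4 replicates 1 and 2 and IAA day 6 replicate 2, with 0.0528 to 0.185.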

How the results depend on the processing

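The counts that follow cover 44 results, the member results that were called and Chchd7 in BPK25 at day 4; other uncalled results are not among them, and some of those gained a call, as the higher member counts below show. Of 308 values of these under 7 alternatives other than leaving out a library, 297 stayed the same, 10 lost the call, 1 gained it and 0 turned direction. Staying the same means keeping the side of the threshold and, in comparisons of 2 groups, the direction. The joint tests of the effect across days have no direction and could not turn. Of 396 values of the same results with 1 library left out, 357 stayed the same in this sense, 38 lost the call and 1 gained it. With 1 library left out, the number of members called ranged from 1 to 2 in BPK25 at day 0, 3 to 5 at day 4 and 0 to 0 at day 6, and from 1 to 2 in IAA at day 0, 6 to 7 at day 4 and 3 to 4 at day 6. It ranged from 2 to 5 between BPK25 and IAA at day 4, 3 to 6 in DMSO from day 0 to day 4, 4 to 6 to day 6, 4 to 6 for the BPK25 effect across days and 4 to 8 for that of IAA. The cause was not tested. With the IAA effect across days, the call for Cox19 was lost with DESeq2 (adjusted p = 0.0553), that for Cmc2 with DESeq2 (0.0714) and the length trend removed (0.0653), and that for Chchd2 with the length trend removed (0.101). Same-numbered libraries deviated from their group means with correlations of -0.10 to 0.11 over 27 pairs, 1 of them over 0.1. With 3 libraries per group, such correlations cannot exclude that same-numbered libraries were handled together, and the main fit does not pair them. With the replicate block the number called was 6 in DMSO from day 0 to day 4, 5 for the BPK25 effect across days and as in the fit without it elsewhere. Chchd7, with 59 to 207 counts per library, is the member for which depth limits the precision most.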
